A study of Mus musculus with 16 samples.

Results

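Newborn granule neurons of the hippocampus are described here through 9 genes that are on while such cells form and mature: Dcx, Sox4, Sox11, Neurod1, Dpysl3, Dpysl5, Tubb3, Igfbpl1 and Eomes. The genes were taken by name from the probe sets that carry a single gene symbol. All 9 were found, each with 1 probe set, among 19935 genes on 21780 such probe sets. Hippocampal RNA of female mice, 3 months old, was read on 16 Affymetrix Mouse Gene 1.0 ST arrays, which probe each transcript along its length. Donors were either heterozygotes with a Crebbp deficiency (cbp+/-) or littermates of wild type, and all came from an F2 background of C57BL/6J and DBA. They lived in standard cages or for 2 weeks in an enriched box with toys, tubing and running wheels. Each array held equal amounts of RNA from 4 animals, so the spread between animals inside a pool is not seen. The design had 5 pools per genotype in standard cages (WT_SC and CBP_SC) and 3 per genotype in enrichment (WT_EE and CBP_EE). Crebbp encodes CBP, an acetyltransferase and coactivator of CREB, and the title of the study names neurogenesis under enrichment as its question.

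In the adult dentate gyrus, radial stem cells give rise to intermediate progenitors, which yield neuroblasts and then immature granule neurons. Eomes (Tbr2) marks the intermediate progenitors, and the bHLH factor Neurod1 is needed for the survival and maturation of the new neurons. The SoxC factors Sox4 and Sox11 act in neuroblasts and switch on neuronal genes such as Dcx and Tubb3. Dcx, which binds microtubules, Tubb3, a neuronal beta-tubulin, and Dpysl3 and Dpysl5, 2 collapsin response mediator proteins of the growth cone, serve the migrating and extending cell. Igfbpl1 encodes a secreted relative of the IGF binding proteins and is a marker of neuroblasts. Several of these genes, Tubb3 and Dpysl3 among them, are also transcribed in mature neurons. In whole hippocampus, fewer newborn cells and less RNA per cell cannot be told apart.

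Signals are given on the log2 scale, where 1 unit is a doubling, and errors of group means are SD over arrays. Array signals followed replicate numbers across the groups. Deviations from the group mean correlated between same-numbered arrays of both genotypes (r of 0.26 to 0.77 over all probe sets in 8 of 8 pairs). Between same-numbered arrays of both housings they did not pair as a whole (-0.39 to 0.37). Enrichment genotype pairs 1 and 2 had r of 0.26 and 0.31, near cbp+/- housing pairs 1 and 2 (0.37 and 0.29). The pairing in enrichment is therefore less certain than in standard cages. With Ward linkage, a clustering added after the data had been seen, replicates 1 and 2 of all 4 groups formed 1 cluster. With average linkage that cluster also held replicate 4 of both standard-cage groups. The spread of signals was also narrower on wild-type enrichment arrays, with an interquartile range of 2.30 to 2.43 against 2.51 to 2.59 in wild-type standard cages. No lower Crebbp signal was seen on arrays labelled cbp+/-. It was 9.57 ± 0.22 on CBP_SC and 9.43 ± 0.18 on WT_SC (n = 5 each), and 9.36 ± 0.025 on CBP_EE and 9.26 ± 0.082 on WT_EE (n = 3 each). In same-numbered pairs Crebbp was higher on the cbp+/- array in 8 of 8, by 0.12 on average (SD 0.076, range 0.010 to 0.24), which held for 1.02% of all probe sets. The labels do not say which part of the gene the allele changes, so this probe set may not bear on the labels. Genotype is that of the labels throughout, and a cbp+/- array is an array labelled so. The hippocampal genes Prox1, of granule cells, and Neurod6, of pyramidal cells, had mean signals of 8.42 and 9.73.

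**Figure D1:**
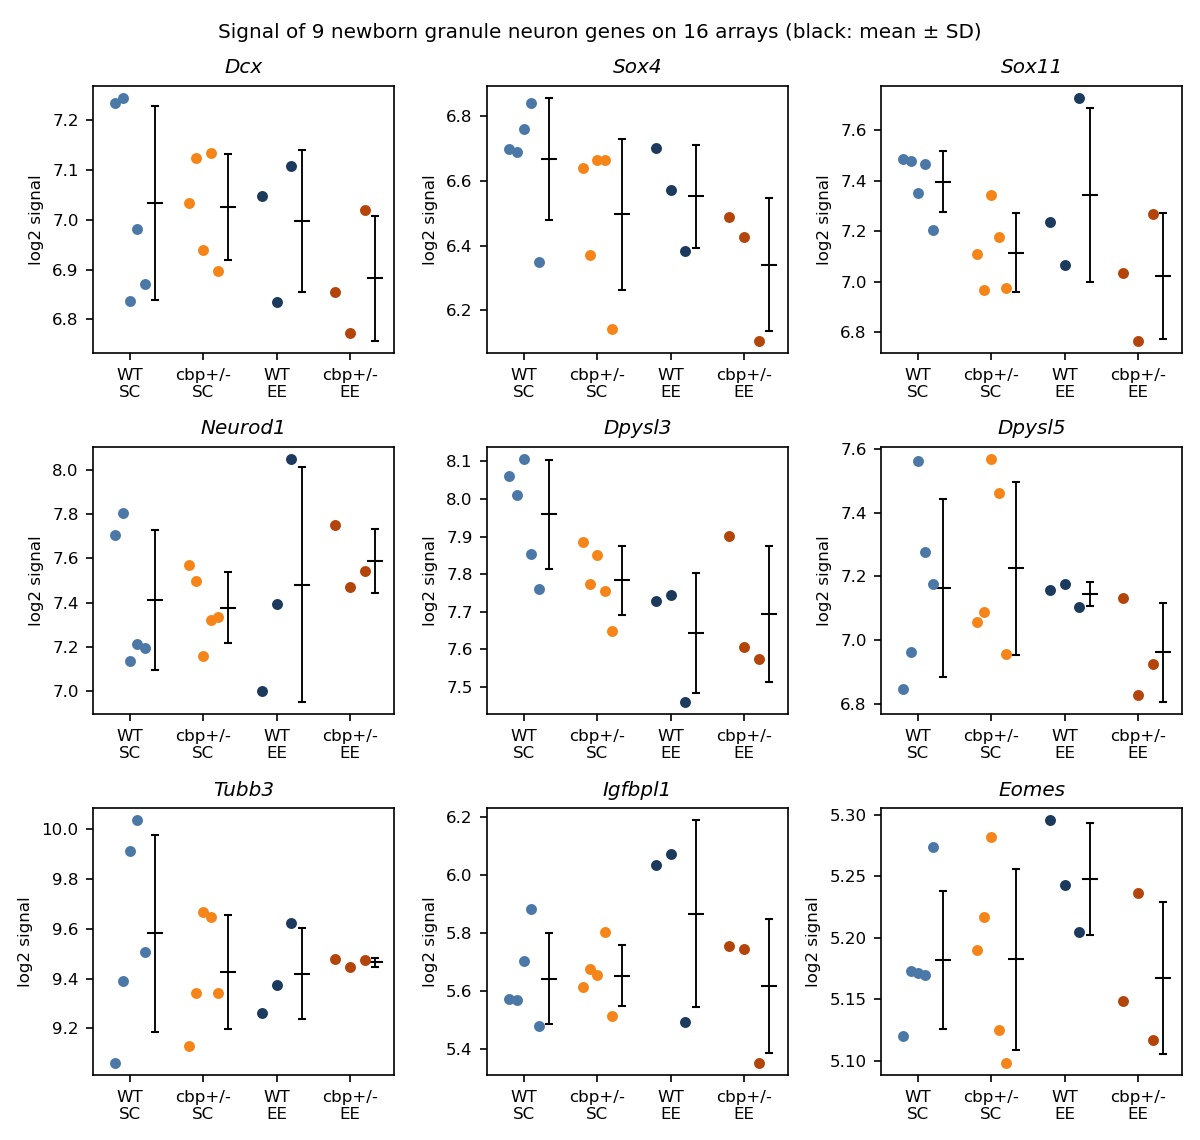
Each panel plots one gene, with log2 signal on the vertical axis (scaled to the gene) and the 4 groups on the horizontal axis; points are arrays in order of replicate number, and the black bars are the mean ± SD (5 arrays per standard-cage group, 3 per enrichment group). Sox11 has a lower mean in both cbp+/- groups, with arrays that overlap those of wild type in each housing. Dpysl3 is lower on all 3 wild-type enrichment arrays than on any wild-type standard-cage array. Groups overlap in most other panels as well.

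Sox4 and Sox11 were lower on the cbp+/- array in every same-numbered pair, in both housings. On average Sox11 differed by -0.30 and Sox4 by -0.19. No other of the 9 genes had the same sign in all 8 pairs. Among all 21780 probe sets 202, or 0.927%, were lower in cbp+/- in 8 of 8 pairs, and 1.02% were higher, Crebbp among the latter, so the directions rest on labels that the signal of the targeted gene does not bear out. With limma, which models all probe sets together and adjusts p by Benjamini-Hochberg, 0 of the 9 genes passed an adjusted p of 0.05 in the mean genotype comparison, as did 0% of probe sets. An unadjusted p under 0.05 was reached by 1 of the 9, Sox11, against 3.91% of all probe sets.

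The Sox11 signal on wild-type standard-cage arrays 1 to 5 was 7.48, 7.48, 7.35, 7.47 and 7.20. On the cbp+/- arrays of the same housing it was 7.11, 6.96, 7.34, 7.18 and 6.98. Of these 5 cbp+/- arrays 4 lay below every wild-type array, and the remaining one, CBP_SC_3, lay next to its partner (difference -0.0066). In enrichment the wild-type arrays read 7.24, 7.07 and 7.73, and the cbp+/- arrays 7.03, 6.77 and 7.27. Here 2 of 3 cbp+/- arrays lay below every wild-type array, and the groups overlapped because the pair of replicate 3 sat higher than the others on both sides. The pair differences ran from -0.51 to -0.0066 with a mean of -0.30 (SD 0.16, n = 8). An exact permutation test of the signs, two-sided and not adjusted for the number of genes, gave p = 0.0078, the smallest it can give with 8 pairs.

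By housing, the Sox11 difference was -0.28 in standard cages (SE 0.12, limma adjusted p = 1.00) and -0.32 in enrichment (SE 0.16, adjusted p = 0.924). The mean over both was -0.30, a 1.23-fold lower signal (SE 0.10, 95% interval -0.52 to -0.086, adjusted p = 0.999). With the pairs as a block the same difference had an SE of 0.056 and an adjusted p of 0.203, and 0% of probe sets passed. In that blocked fit 3 of 9 genes, Sox4, Sox11 and Igfbpl1, had an unadjusted p under 0.05 for the mean, against 11.7% of probe sets. Within replicates 1 and 2, the cluster that holds all 4 groups, it was -0.35. Without WT_EE_3 the enrichment difference was -0.13, the smallest with any single array left out.

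The Sox4 signal on wild-type standard-cage arrays was 6.70, 6.69, 6.76, 6.84 and 6.35, and on the cbp+/- arrays it was 6.64, 6.37, 6.66, 6.66 and 6.14. Replicate 5 was the lowest of its group in both genotypes, and so the groups overlapped although every cbp+/- array lay below its partner. In enrichment the wild-type arrays read 6.70, 6.57 and 6.38, and the cbp+/- arrays 6.49, 6.43 and 6.11. Replicate 3 was the lowest in both genotypes there. The pair differences ran from -0.32 to -0.059 with a mean of -0.19 (SD 0.087, n = 8, exact two-sided permutation test of the signs, p = 0.0078, again the smallest possible).

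The limma estimate for Sox4 was -0.17 in standard cages (SE 0.12, adjusted p = 1.00), -0.21 in enrichment (SE 0.16, adjusted p = 0.937) and -0.19 on average, a 1.14-fold lower signal (SE 0.098, 95% interval -0.40 to 0.019, adjusted p = 0.999). With the pairs as a block the SE was 0.037 and the adjusted p 0.218. Within replicates 1 and 2 the difference was -0.18. The interaction, which asks whether the housing difference depends on genotype, was -0.041 for Sox4 (SE 0.20) and -0.039 for Sox11 (SE 0.20), each with an adjusted p of 1.00. Sox12, the third SoxC gene, differed by 0.030 between genotypes on average (SE 0.082, adjusted p = 0.999) and was lower in 3 of 8 pairs.

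**Figure D2:**
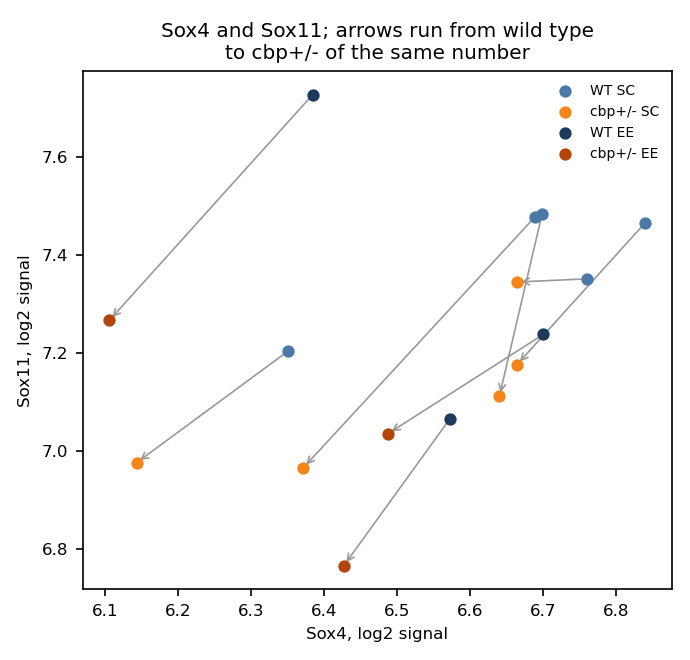
Sox4 log2 signal (horizontal) against Sox11 log2 signal (vertical) on the 16 arrays, coloured by group, with an arrow from each wild-type array to the cbp+/- array of the same number. All 8 arrows point left and down, by -0.19 on average for Sox4 and -0.30 for Sox11.

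The promoters of Sox4 and Sox11 are shown because these were the members that were lower in all pairs, and CBP is recruited by CREB and other factors to upstream sequence. Both are the 250 bases before the RefSeq transcription start, from the table of assembly GRCm38.p6, written 5′ to 3′ in the direction of transcription. Each gene lies on the minus strand, Sox4 with its window at chr13:28953700-28953949 and Sox11 at chr12:27342719-27342968. Capitals mark the letters CCAAT on either strand, so ATTGG where the motif lies on the other strand. This motif was added after the sequences had been looked at.
Sox4: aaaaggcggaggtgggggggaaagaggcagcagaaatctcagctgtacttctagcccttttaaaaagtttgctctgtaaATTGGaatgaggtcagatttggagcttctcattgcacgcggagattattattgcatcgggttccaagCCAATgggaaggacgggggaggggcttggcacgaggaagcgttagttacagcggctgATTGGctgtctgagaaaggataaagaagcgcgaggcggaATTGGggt
Sox11: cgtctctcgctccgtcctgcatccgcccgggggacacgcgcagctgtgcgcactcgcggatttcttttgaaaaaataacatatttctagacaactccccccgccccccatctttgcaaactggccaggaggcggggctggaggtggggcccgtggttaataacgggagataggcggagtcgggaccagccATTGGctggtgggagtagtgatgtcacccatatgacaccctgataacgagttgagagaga

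Sox4 held the CCAAT letters 4 times, at 171, 104, 47 and 8 bases before the start, and Sox11 held them once, at 60 bases. Of 32851 windows of the same length in the table, 33.8% held at least 1 match. Neither window held the full cyclic AMP response element TGACGTCA, present in 1.5% of windows, on either strand. Nor did they hold its shorter core TGACG, present in 17.8%, which every full element contains. The proneural E-box CAGATG, in 14.4% of windows, and the Sox motif ACAAAG, in 16.5%, were also not among the letters of these windows. The table held windows for 7 of the 9 genes, 8 in all since Dcx has 2 start sites. In these the full response element, its core and the E-box had 0 matches, while the Sox motif occurred once for Dcx, 8 bases before its downstream start, and once for Dpysl5, at 15 bases. CCAAT occurred once each for Dcx and Tubb3 and 2 times for Eomes, and not in the window of Neurod1. A match is a run of letters and no evidence of binding.

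**Figure D3:**
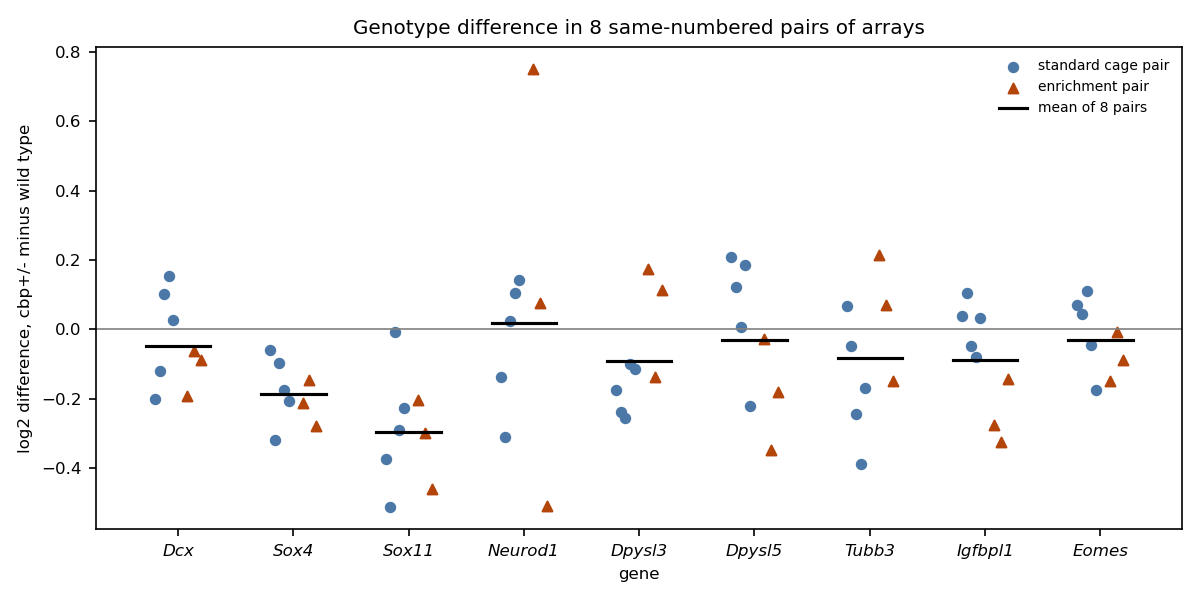
Log2 difference, cbp+/- minus wild type, of same-numbered arrays for each of the 9 genes (blue circles, 5 standard-cage pairs; red triangles, 3 enrichment pairs; black bars, mean of 8 pairs). Sox4 and Sox11 lie below 0 in all 8 pairs, the Neurod1 enrichment pairs spread from -0.51 to 0.75, and Igfbpl1 is below 0 in the 3 enrichment pairs and in 2 of 5 standard-cage pairs.

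Of the other transcription factors, Neurod1 and Eomes had no common sign between genotypes. The Neurod1 signal was 7.71, 7.81, 7.14, 7.21 and 7.19 on WT_SC arrays and 7.57, 7.50, 7.16, 7.32 and 7.34 on CBP_SC arrays. In enrichment it was 7.00, 7.40 and 8.05 on wild-type arrays and 7.75, 7.47 and 7.54 on cbp+/- arrays. The wild-type enrichment arrays were the most scattered of any group (SD 0.53, n = 3), and they enclosed all 3 cbp+/- arrays. Neurod1 was lower in 3 of 8 pairs, with a mean difference of 0.018 (SD 0.37, exact two-sided permutation p = 0.875).

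The Eomes signal was dim and nearly flat. It read 5.12, 5.17, 5.17, 5.17 and 5.27 on WT_SC and 5.19, 5.22, 5.28, 5.13 and 5.10 on CBP_SC arrays, and 5.30, 5.24 and 5.21 on WT_EE and 5.15, 5.24 and 5.12 on CBP_EE arrays. Its genotype difference was -0.030 on average over pairs (SD 0.10, 5 of 8 lower, exact two-sided permutation p = 0.430). In enrichment 2 of 3 cbp+/- arrays lay below every wild-type array, by group means of 5.17 against 5.25 (difference -0.081, SE 0.057, limma adjusted p = 0.937). Probe sets as bright as the T-box brain factors, Eomes among them, had a typical median of -0.056 in that comparison.

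The cytoskeletal members were not lower in all pairs as Sox4 and Sox11 were. Dcx read 7.23, 7.24, 6.84, 6.98 and 6.87 on WT_SC and 7.03, 7.12, 6.94, 7.13 and 6.90 on CBP_SC arrays. Within standard cages the cbp+/- values lay inside the wild-type range on every array. In enrichment Dcx read 7.05, 6.84 and 7.11 on wild-type and 6.85, 6.77 and 7.02 on cbp+/- arrays, lower in 3 of 3 pairs by -0.19, -0.063 and -0.088. All 3 enrichment pairs were lower for 18.8% of probe sets, so this is a common pattern on these arrays. Over 8 pairs the Dcx mean was -0.048 (SD 0.13, 5 lower, exact two-sided permutation p = 0.320), and the limma interval for the mean genotype difference ran from -0.22 to 0.098.

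Dpysl3 was lower in cbp+/- in the 5 standard-cage pairs and in 1 of 3 enrichment pairs. Its signal was 8.06, 8.01, 8.11, 7.85 and 7.76 on WT_SC arrays and 7.89, 7.77, 7.85, 7.76 and 7.65 on CBP_SC arrays. In standard cages 2 of 5 cbp+/- arrays lay below every wild-type array, and the pair differences ran from -0.25 to -0.10. A lower signal in all 5 standard-cage pairs was seen for 3.56% of probe sets. The limma difference there was -0.18 (SE 0.085, adjusted p = 1.00; with the pairs as a block SE 0.051 and adjusted p = 0.855), and in enrichment it was 0.050 (SE 0.11, adjusted p = 0.993).

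Dpysl5 read 6.85, 6.96, 7.56, 7.28 and 7.18 on WT_SC arrays and 7.06, 7.09, 7.57, 7.46 and 6.96 on CBP_SC arrays. In enrichment it read 7.16, 7.18 and 7.10 on wild-type and 7.13, 6.83 and 6.92 on cbp+/- arrays. It was lower in 1 of 5 standard-cage pairs and in 3 of 3 enrichment pairs, the latter as for 18.8% of probe sets. The limma difference was 0.061 in standard cages (SE 0.14) and -0.18 in enrichment (SE 0.18, adjusted p = 0.957), and the difference between these was not called (interaction -0.25, SE 0.23, adjusted p = 1.00).

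Tubb3 read 9.06, 9.39, 9.91, 10.04 and 9.51 on WT_SC and 9.13, 9.34, 9.67, 9.65 and 9.34 on CBP_SC arrays, a range between replicate numbers that was wider than any genotype difference. In enrichment it read 9.26, 9.37 and 9.62 on wild-type and 9.48, 9.44 and 9.47 on cbp+/- arrays, with the cbp+/- arrays between the wild-type ones. It was lower in 5 of 8 pairs, with a mean of -0.081 (SD 0.20, exact two-sided permutation p = 0.273).

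Igfbpl1 was lower on the cbp+/- array in the 3 enrichment pairs, by -0.28, -0.33 and -0.14, and 18.8% of probe sets were lower in all 3. Its signal there was 6.03, 6.07 and 5.50 on wild-type and 5.76, 5.75 and 5.35 on cbp+/- arrays, so replicate 3 was low in both genotypes. In standard cages it was 5.57, 5.57, 5.70, 5.89 and 5.48 on wild-type and 5.61, 5.68, 5.66, 5.81 and 5.52 on cbp+/- arrays, with overlapping ranges and 2 of 5 pairs lower. The limma difference in enrichment was -0.25 (SE 0.15, adjusted p = 0.927). With the pairs as a block it had an SE of 0.056 and an adjusted p of 0.294, and with arrays weighted by their quality it was -0.31 with an adjusted p of 0.0093, when 11.4% of probe sets were called. Igfbpl1 lies among dim probe sets, and probe sets of like brightness had a median difference of -0.079 in the same comparison.

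In each housing taken alone, 0 of 9 genes passed an adjusted p of 0.05 between genotypes, as did 0% of probe sets. In standard cages 1 of 9, Sox11, had an unadjusted p under 0.05 against 0.987% of probe sets. In enrichment 0 of 9 did, against 5.23%. With the pairs as a block the count was 3 in standard cages (Sox4, Sox11 and Dpysl3, against 4.39%) and 3 in enrichment (Sox4, Sox11 and Igfbpl1, against 13%). It was 2 for the interaction (Dpysl3 and Igfbpl1, against 6.62%). The median of the 9 differences was -0.035 in standard cages and -0.11 in enrichment, beside medians over all genes of 0.0049 and -0.021. Averaged over housings 8 of 9 genes were lower with a median of -0.062, against 57.1% of all genes and a median of -0.010.

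Enrichment did not go with a common direction of these genes in wild-type mice. With all 16 arrays 0 of 9 passed, as did 0% of probe sets, and 1 of 9, Dpysl3, had an unadjusted p under 0.05 against 17.8%. Here 6 genes were lower and 3 higher, with a median of -0.036, while 40.8% of all genes were lower with a median of 0.032. Probe sets as bright as these had a typical median of -0.067, and 4 of the 9 lay above the median for their own brightness. The mean Dcx signal was 7.00 ± 0.14 on the 3 enrichment arrays against 7.03 ± 0.20 on the 5 standard-cage arrays. Its difference was -0.036, with an SE of 0.10, a 95% interval of -0.26 to 0.19 and a limma adjusted p of 0.879. The upper limit of 0.19 log2 units for the whole hippocampus holds for this fit, and the difference changed with the arrays used, as given below.

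Dpysl3 was lower in wild-type enrichment, at 7.73, 7.74 and 7.46 against 7.76 to 8.11 in standard cages. All 3 enrichment arrays lay below all 5 standard-cage arrays, which held for 435 probe sets or 2%. The difference was -0.31, a 1.24-fold lower signal (SE 0.098, adjusted p = 0.155). Probe sets of like brightness had a median of -0.087, and with quantile normalization, which gives all arrays 1 distribution of signals, Dpysl3 stood at -0.23 (adjusted p = 0.474). Without WT_EE_3 it was -0.22. In cbp+/- mice the enrichment arrays read 7.90, 7.61 and 7.57 against 7.65 to 7.89, with overlapping groups and a difference of -0.090 (SE 0.098, adjusted p = 0.999). The interaction was 0.23 (SE 0.14, adjusted p = 1.00), so the genotypes were not shown to differ in it.

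Igfbpl1 was higher on 2 of 3 wild-type enrichment arrays than on any standard-cage array, and near the lowest on the third. The difference was 0.22 (SE 0.13, 95% interval -0.063 to 0.51, adjusted p = 0.393), with a median of 0.13 for probe sets of like brightness and 0.10 for Igfbpl1 after quantile normalization. Without WT_EE_3 it was 0.41. In cbp+/- mice the difference was -0.034 (SE 0.13, adjusted p = 0.999), and the interaction was -0.26 (SE 0.19, adjusted p = 1.00; with the pairs as a block SE 0.070 and adjusted p = 0.731).

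Sox4, Sox11 and the remaining members differed little by housing in wild type beside their errors. Sox4 differed by -0.12 (SE 0.14) and Sox11 by -0.053 (SE 0.14). Neurod1 differed by 0.070 (SE 0.21) and Eomes by 0.066 (SE 0.051). Tubb3 differed by -0.16 (SE 0.19) and Dpysl5 by -0.019 (SE 0.16). Their adjusted p lay between 0.511 for Eomes and 0.962 for Dpysl5.

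The picture in wild type rested on which arrays were compared. Among replicates 1 and 2, which formed 1 cluster over all 4 groups, 5 of 9 genes passed an adjusted p of 0.05, where 29.9% of all probe sets did. Dcx was at 7.05 and 6.84 in enrichment and 7.23 and 7.24 in standard cages, a difference of -0.30 (adjusted p = 0.025). Neurod1 was at 7.00 and 7.40 against 7.71 and 7.81, a difference of -0.56 (adjusted p = 0.017), while with all arrays it was 0.070. Sox11 differed by -0.33 (adjusted p = 0.038) and Dpysl3 by -0.30 (adjusted p = 0.040). Igfbpl1 differed by 0.48 (adjusted p = 0.0059), with a median of 0.20 for probe sets of like brightness.

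These 5 calls compare 2 arrays with 2, in a cluster drawn from the same values, and were chosen as a setting after the data had been seen. A wider cluster from average linkage, which adds SC_4 of both genotypes, called 0 of 9 members and 8.59% of probe sets. There Dcx was at -0.21 (adjusted p = 0.170), Sox11 at -0.32 (0.062), Neurod1 at -0.38 (0.208) and Igfbpl1 at 0.38 (0.050). With the clusters as a block over all arrays, 0 of 9 passed. With all arrays weighted by quality, a fit in which WT_EE_3 had the lowest weight (0.261) and CBP_EE_1 the highest (8.63), 4 of 9 passed where 24.1% of probe sets did. These were Dcx (-0.29), Sox11 (-0.34), Dpysl3 (-0.26) and Igfbpl1 (0.44). On replicate 3 of wild-type enrichment, Neurod1 (8.05) and Sox11 (7.73) had their highest signals of all 16 arrays.

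**Figure D4:**
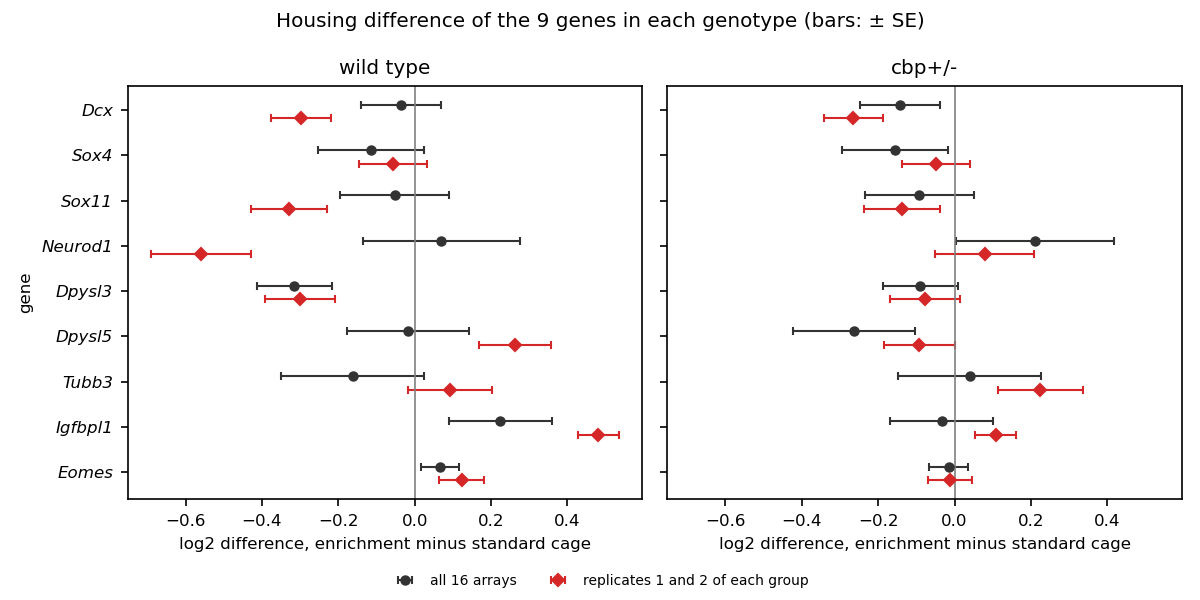
Log2 difference, enrichment minus standard cage, for each of the 9 genes in wild type (left) and cbp+/- (right); black circles use all 16 arrays, red diamonds replicates 1 and 2 of each group, and bars are ± SE of the limma fit. In wild type Dpysl3 is near -0.3 in both, while Neurod1 moves from 0.070 to -0.56 and Igfbpl1 from 0.22 to 0.48.

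In cbp+/- mice 0 of 9 genes passed for housing with all arrays, as did 0% of probe sets, and 0 of 9 had an unadjusted p under 0.05, against 2.82%. Here 7 genes were lower in enrichment and 2 higher, with a median of -0.090, while 44.5% of all genes were lower with a median of 0.011. Dpysl5 had the lowest difference, -0.26 (SE 0.16), with 2 of 3 enrichment arrays below every standard-cage array. Dcx differed by -0.14 (SE 0.10), also with 2 of 3 arrays below. Neurod1 was the highest at 0.21 (SE 0.21), with CBP_EE_1 above every standard-cage array. Sox4 differed by -0.16 (SE 0.14), Sox11 by -0.092 (SE 0.14), Tubb3 by 0.039 (SE 0.19) and Eomes by -0.015 (SE 0.051). Each of these had an adjusted p of 0.999. Among replicates 1 and 2 Dcx was at -0.26 in cbp+/- (adjusted p = 0.330), and 0 of 9 genes passed.

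For the interaction 0 of 9 genes passed, as did 0% of probe sets, and 0 of 9 had an unadjusted p under 0.05, against 2.66%. The Dcx interaction was -0.11 (SE 0.15, 95% interval -0.42 to 0.21). For the mean of both housing differences 0 of 9 passed, as did 0% of probe sets, and 1 of 9, Dpysl3, had an unadjusted p under 0.05, against 19.1%. Its mean difference was -0.20 (SE 0.069, adjusted p = 0.177). Over both genotypes 3 of 9 passed among replicates 1 and 2, where 25.1% of probe sets did: Dcx at -0.28, Sox11 at -0.23 and Igfbpl1 at 0.29. The same 3 genes passed with arrays weighted by quality, where 28.3% did. In the wider cluster 1 of 9 passed, Sox11 at -0.25, where 8.91% did.

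Other genes of the lineage, from lists drawn up for this tissue, were read in the same fit. In each of the 7 comparisons 0 genes of any list passed an adjusted p of 0.05. Of 35 further neuroblast and immature neuron genes 20 were lower in cbp+/- on average, with a median of -0.025, beside 57.1% of all genes. The housings differed in the count: 28 of 35 were lower in standard cages (median -0.046), where 46.0% of all genes were, and 20 in enrichment (median -0.011), where 58.9% were. That difference between housings was not tested. Stmn1, a microtubule-destabilising protein, and Elavl2, an RNA-binding protein of neurons, were lower in 8 of 8 pairs, by -0.12 (SE 0.11) and -0.039 (SE 0.044) in limma. The smallest p in that list belonged to Sema3c, a secreted semaphorin, at -0.16 (SE 0.071, adjusted p = 0.999, 6 of 8 pairs lower). On average 15 of the 35 were higher in cbp+/-. Among these Tuba1a had the smallest p, at 0.16 (SE 0.12, adjusted p = 0.999, 6 of 8 pairs higher).

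Of 27 measured stem and progenitor genes 18 were lower in cbp+/- with a median of -0.024, beside 57.1% of all genes. Lpar1, a lysophosphatidic acid receptor of stem cells, was lower in 8 of 8 pairs (-0.17, SE 0.069, adjusted p = 0.999). The other 9 genes were higher. Among these Id3 had the smallest p, at 0.21 (SE 0.14, adjusted p = 0.999, 7 of 8 pairs higher). Of 23 measured proliferation genes 18 were lower on average with a median of -0.040. By housing, 13 were higher in standard cages (median 0.021) and 16 lower in enrichment (median -0.052). Typical medians of probe sets of like brightness were -0.026 on average, 0.0045 in standard cages and -0.056 in enrichment. Above the median for their own brightness lay 11 of the 23 on average, 12 in standard cages and 12 in enrichment. As a whole the list therefore did not stand apart from its brightness between genotypes. The smallest p of that list belonged to Ccnd1, which encodes cyclin D1 (-0.21, SE 0.070, adjusted p = 0.999, 7 of 8 pairs lower). In wild-type enrichment 18 of these 23 were higher with a median of 0.055. Probe sets as bright as these had a typical median of 0.084, and 11 of the 23 lay above the median for their own brightness. Ube2c, a ubiquitin-conjugating enzyme of mitosis, had the smallest p (0.21, SE 0.065, adjusted p = 0.155), beside a median of 0.13 for probe sets of like brightness. As given above, 40.8% of all genes were lower in that comparison.

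Of the 8 genes of the Neurod and Neurog family 6 were higher in wild-type enrichment and 2 lower, with a median of 0.11. Among them Neurod2 was at -0.18. Neurog3 had the smallest p (0.25, SE 0.048, adjusted p = 0.082) and Neurog1 and Neurog2 were at 0.26 (SE 0.080) and 0.15 (SE 0.042). These 3 are dim, and probe sets of like brightness had medians of 0.084, 0.13 and 0.12. Of the 6 genes of the Dpysl family 5 were lower there, with a median of -0.22, among them Dpysl2 at -0.27 (SE 0.17), Crmp1 at -0.33 (SE 0.19) and Dpysl4 at -0.18 (SE 0.14). Dpys was higher, at 0.13 (SE 0.047, adjusted p = 0.197). Probe sets as bright as this family had a typical median of -0.075. Dclk2, a relative of Dcx, was at -0.38 (SE 0.12, adjusted p = 0.161). Of the 7 beta-tubulins 4 were lower, Tubb5 at -0.26 (SE 0.13). Of the 6 measured doublecortin genes 5 were lower, and of the 8 IGF binding proteins and relatives 5 were higher, with a median of 0.13. Of the 3 T-box brain factors 2 were higher. These family counts include the members themselves.

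Cells that share these markers or lie beside the tissue were read as well. Of 18 mature granule cell genes 14 were lower in cbp+/- with a median of -0.092, beside 57.1% of all genes. Probe sets as bright as these had a typical median of 0.020, and 4 of the 18 lay above the median for their own brightness. The 9 members had a median of -0.062. Summed over the mature granule list the signal was 4801 to 5938 on WT_SC, 4680 to 5905 on CBP_SC, 4855 to 5594 on WT_EE and 4566 to 5148 on CBP_EE arrays. Of 15 measured genes of subventricular zone and olfactory neuroblasts, which also use SoxC factors and Dcx, 10 were lower with a median of -0.065, and Prokr2, the prokineticin receptor, was lower in 8 of 8 pairs (-0.19, SE 0.062, adjusted p = 0.999). The summed signal of this list was 3776 to 4465 on WT_SC, 3501 to 4362 on CBP_SC, 3759 to 4290 on WT_EE and 3594 to 4050 on CBP_EE arrays. Its brightest genes were Gad1 (mean signal 10.1), Etv1 (9.26) and Gad2 (9.17), so the sum is no measure of neuroblasts alone. The part of these cells in the Sox4 and Sox11 differences was not tested. Of 9 Cajal-Retzius genes 6 were lower, with a median of -0.017. The shares lower in the subventricular and Cajal-Retzius lists were each 66.7%, beside 57.1% of all genes.

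By group means the 12 measured choroid plexus genes were all higher in cbp+/- standard cages, where 46.0% of all genes were lower. Their summed signal was 781 to 8102 on CBP_SC arrays and 751 to 2617 on WT_SC arrays. The value of 8102 was on 1 array, and the count without it was not tested. Over both housings, 0 of the 12 were higher in every same-numbered pair. Kcnj13 was lower in 7 pairs and higher in 1, and Kl lower in 1 and higher in 7. In enrichment 10 of 12 were lower in cbp+/- by group means, where 58.9% of all genes were. The part of choroid plexus carry-over in the Sox4 and Sox11 differences was not tested. Of 12 genes of meninges and ependyma 7 were higher on average in cbp+/-, with a median of 0.0046.

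The 9 genes did not vary together across arrays as one group. Over the 16 arrays, which share groups, pairs and clusters, 23 of their 36 pairwise correlations were positive and 13 negative, with a median Pearson r of 0.175 and a range of -0.54 to 0.68. After each cluster's mean was subtracted 20 were positive and 16 negative, with a median of 0.085. Of the 4 clusters 1 held only WT_EE_3, so this step set that array to 0 for every gene. On WT_EE_3 Sox11 was at 7.73, its highest signal, and Sox4 at 6.38. Sox4 and Sox11 had an r of 0.36 as measured, 0.77 after the cluster means were subtracted and 0.05 after the means of the 4 study groups were subtracted. The last step takes out the genotype difference, which subtracting cluster means leaves in. Neurod1 and Igfbpl1 had an r of -0.44 as measured, -0.78 without cluster means and -0.53 without group means. Dpysl5 and Tubb3 had an r of 0.67, 0.57 and 0.78 in the same order.

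**Figure D5:**
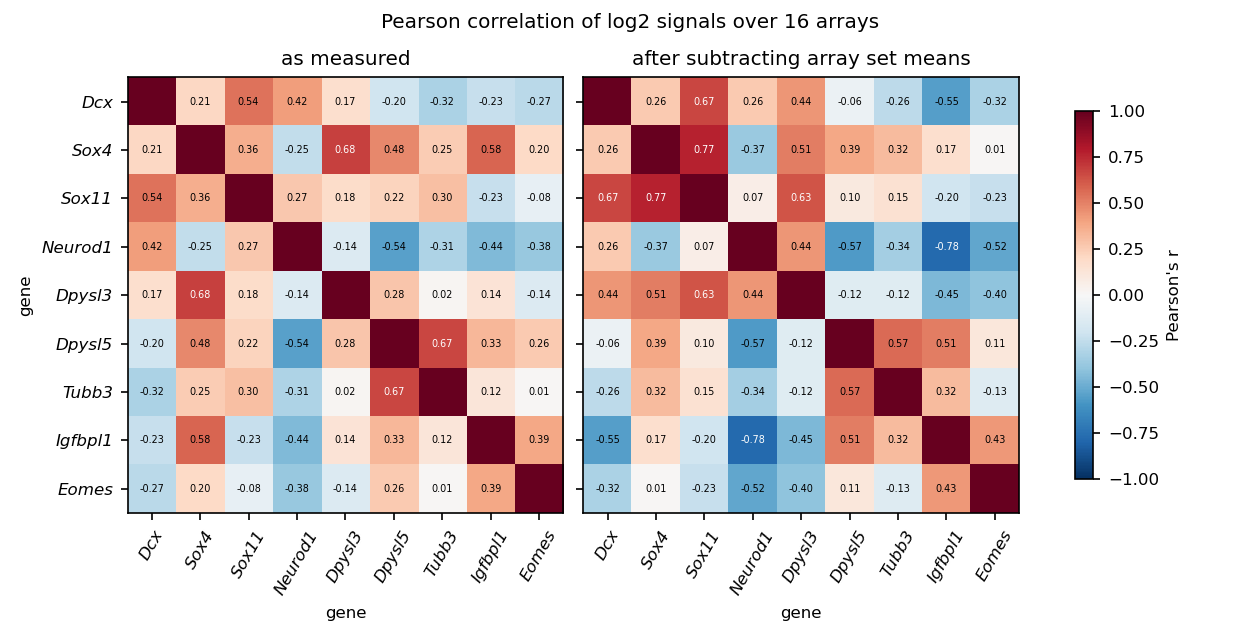
Pearson correlation of log2 signals between the 9 genes over 16 arrays, as measured (left) and after subtracting the mean of each of the 4 array clusters (right), on a colour scale from -1 (blue) to 1 (red). Of the 4 clusters 1 held only WT_EE_3, which the subtraction sets to 0 for every gene. Sox4 with Sox11 reads 0.36 on the left and 0.77 on the right, but 0.05 once study group means are subtracted (not plotted); Neurod1 with Igfbpl1 reads -0.44 and -0.78, and -0.53 without group means.

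Dcx, the most used marker of this stage, was set against all 19934 other genes. The closest patterns over the 16 arrays were those of Ckap5 (r = 0.89), Ino80 (0.88), Ecpas (0.87), Cntn3 (0.87) and Atp2c1 (0.83). Of the members Sox11 came nearest at 0.54, which is rank 646, followed by Neurod1 at 0.42 and rank 1472. With group means subtracted the order was turned, Neurod1 at 0.60 and rank 630 and Sox11 at 0.55 and rank 980. Sox4 had an r of 0.21 and Dpysl3 of 0.17. Dpysl5 (-0.20), Igfbpl1 (-0.23), Eomes (-0.27) and Tubb3 (-0.32) ran the other way. After subtraction of the cluster means, which sets WT_EE_3 to 0, Sox11 was at 0.67 and rank 418. Correlations across 16 arrays follow the array clusters, and they are given as a description.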

How the data were processed

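Hippocampal RNA of 4 animals per pool was hybridised to 1 array each, and the labels' protocols call the pools independent biological replicates. The deposited table holds intensities on a linear scale, summarised with RMA per the submitters' processing notes and processed in GeneSpring GX per the labels' protocols; a baseline step, if any, is not stated in the labels. Array medians ran from 76.7 to 85.46. Scanner files were not used here. Of 28815 probe sets, 21780 carried 1 gene symbol in the platform annotation, 1605 carried several and 5430 had no entry. By gene number, 21689 of the 21780 were found in RefSeq's gene table (assembly GRCm38.p6).

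The log2 of each intensity was fitted in limma 3.58.1 (R 4.3.3) with 4 group means over 16 arrays and 12 residual degrees of freedom, and p was adjusted by Benjamini-Hochberg over the 21780 probe sets in each of 7 comparisons. The scripts were tested on simulated data. The number of arrays limits the precision.

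Whether replicate numbers pair arrays was checked from the deviations from the group means. All 8 genotype pairs exceeded r = 0.1 and were treated as pairs. That cut cannot establish pairing in enrichment, since cbp+/- housing pairs 1 and 2 exceeded it too. No r of differently numbered arrays was set beside these. The pairing comes from the data and the numbers in the titles and not from a stated litter or day. Pair differences were tested by an exact permutation of their signs. Numbers did not pair housings as a whole. Array clusters came from average and Ward linkage of all probe sets. Alternatives were quantile normalization, a filter on dim probe sets, array weights, another variance prior, an offset of 16 before the log, blocks for number, pair and cluster, and each array left out.

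The 9 genes, the 16 lists and the tests were chosen with earlier results of these data known. The genes named are the 9 members, the 5 genes closest to Dcx, Crebbp, and list genes with the smallest p in a direction for a comparison described. That last rule was not carried through for every list and direction. For the genotype difference more lower than higher list genes are named. Further list genes (those lower in all pairs, Prox1, Neurod6 and relatives of the members) were named after their values were seen.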

Additional observations from a re-analysis of the deposited data

How the results depend on the processing

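The Sox4 and Sox11 pair differences kept their direction in 8 of 8 pairs under quantile normalization and the offset of 16. With each pair left out the mean ran from -0.34 to -0.27 for Sox11 and from -0.20 to -0.17 for Sox4; since all pairs were lower, the p of those settings is fixed at its floor and says nothing about stability. Over pairs, leaving out 1 pair moved Neurod1 between -0.087 and 0.093 and Dpysl5 between -0.065 and 0.014. In the replicate block by genotype pair 0 members and 0 probe sets were called in any genotype comparison or the interaction, so it changed no call. With the replicate number as a block, which did not pair the housings, wild-type housing Neurod1 was -0.015, and for housing averaged over genotypes 1 member (Dpysl3) and 326 probe sets were called.

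Differences near 0 changed sign, and the cause was not tested. With quantile normalization wild-type housing was 0.014 for Dpysl5 and -0.027 for Eomes, genotype in standard cages -0.0030 for Eomes, and genotype in enrichment -0.0063 for Tubb3. With array weights 4 members were called for wild-type housing, 1 for genotype in enrichment and 3 for mean housing. Wild-type housing was then -0.22 for Neurod1 and 0.15 for Dpysl5, cbp+/- housing 0.048 for Dpysl3 and 0.087 for Igfbpl1, the interaction 0.078 for Dcx, 0.070 for Sox4 and 0.30 for Sox11, and mean genotype 0.012 for Dpysl5. With the clusters of average linkage as a block, wild-type housing was -0.32 for Neurod1 and 0.082 for Dpysl5, and the interaction 0.0039 for Sox4 and 0.16 for Sox11. Within the largest of those clusters wild-type housing was -0.38 for Neurod1 and 0.14 for Dpysl5, cbp+/- housing 0.054 for Igfbpl1 and 0.015 for Eomes, the interaction 0.0047 for Sox4 and 0.14 for Sox11, and mean genotype 0.0094 for Tubb3, with 1 member called for mean housing.

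The Ward clusters were added after the data had been seen. With them as a block wild-type housing was -0.054 for Neurod1, 0.16 for Dpysl5 and 0.046 for Tubb3, and cbp+/- housing 0.043 for Igfbpl1. Within replicates 1 and 2, 5 members were called for wild-type housing and 3 for mean housing. Wild-type housing was -0.56 for Neurod1, 0.26 for Dpysl5 and 0.092 for Tubb3, cbp+/- housing 0.11 for Igfbpl1, genotype in standard cages 0.0094 for Tubb3, the interaction 0.033 for Dcx, 0.0088 for Sox4 and 0.19 for Sox11, and mean genotype 0.076 for Tubb3.

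With each array left out in turn 0 members were called. Wild-type housing ranged from -0.092 to 0.045 for Dcx, -0.24 to 0.086 for Sox11, -0.21 to 0.31 for Neurod1 and -0.098 to 0.080 for Dpysl5. In cbp+/- it ranged from -0.21 to 0.036 for Sox11, -0.035 to 0.10 for Tubb3, -0.10 to 0.099 for Igfbpl1 and -0.050 to 0.0099 for Eomes. Genotype in standard cages ranged from -0.057 to 0.045 for Dcx, -0.10 to 0.064 for Neurod1, -0.024 to 0.16 for Dpysl5, -0.030 to 0.070 for Igfbpl1 and -0.024 to 0.024 for Eomes. In enrichment it ranged from -0.14 to 0.39 for Neurod1, -0.054 to 0.11 for Dpysl3 and -0.033 to 0.15 for Tubb3. The interaction ranged from -0.13 to 0.076 for Sox4, -0.18 to 0.15 for Sox11 and -0.10 to 0.43 for Neurod1, and mean genotype from -0.085 to 0.18 for Neurod1 and -0.12 to 0.0011 for Tubb3. Of single arrays left out, CBP_EE_3 brought the most calls over all probe sets, 19 for wild-type housing and 230 for mean housing.

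Over all probe sets the count called for wild-type housing was 0 with all arrays, 5254 with array weights, 96 with the other variance prior and 13 with the offset. The filter on dim probe sets left out Sox4, Igfbpl1 and Eomes. Each member has 1 probe set, so no other probe set could be tried, and the smaller clusters hold at most 1 array of a group, so no fit within them could be made.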
